A study of Drosophila melanogaster with 18 samples.

Results

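The 39 genes described here copy the genome and drive the cell division cycle of Drosophila melanogaster. They were taken by name from the 16957 genes and transposons of the deposited tables, and all 39 had a row. They comprise 17 genes of DNA replication, 9 regulators of the passage from G1 into S phase, and 13 genes of mitosis. The values come from OSCs (ovarian somatic cells), which grow in culture and derive from the follicle cells of the fly ovary. RNA was sequenced after 2 days of knockdown of brm, piwi or mael, against a knockdown of EGFP, a sequence foreign to the fly, as the control. Brm is the motor subunit of SWI/SNF complexes, which move and evict nucleosomes, Piwi is the nuclear protein that silences transposons with the help of small RNAs, and Mael (Maelstrom) acts in the same silencing. ChIP-seq of Brm, Polybromo and Osa, each a subunit of a SWI/SNF complex, was made after 2 days of piwi or EGFP knockdown, with input DNA. With 1 library per group nothing could be set against replicate spread, so differences carry no p-value and describe these libraries.

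Chromosome replication starts with licensing. The origin recognition complex (ORC), Cdc6 and Cdt1 (dup in the fly) load the ring of Mcm2 to Mcm7 proteins onto origins, and geminin blocks this step by binding Cdt1. E2F transcription factors, held back by Rbf and released by cyclin-dependent kinases, turn on many replication genes at the start of S phase. Cyclin B with Cdk1, the Aurora and Polo kinases and the anaphase activator fzy (Cdc20) then carry cells through mitosis.

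The RNA libraries held 4865534 reads (Brm knockdown), 8965485 (Piwi knockdown), 9498401 (Mael knockdown) and 8983374 (EGFP). The ChIP and input libraries held 475226 to 2779826 reads, of which 29.6% to 38.6% lay on the listed features. RNA of each target was lowest in its own knockdown, with brm at 0.540 RPKM there and 6.66 RPKM in the EGFP library, piwi at 10.95 RPKM in its knockdown and 81.5 RPKM in the EGFP library, and mael at 4.20 RPKM in its knockdown and 14.5 RPKM in the EGFP library. In the Brm knockdown library piwi was also low, at 21.3 RPKM. Of 6 markers of ovarian somatic cells, none was under 1 RPKM in any library. Their summed level was 181 RPKM in Brm, 305 in Piwi, 224 in Mael and 253 in EGFP knockdown cells. Of 9 germline markers, 7 or 8 were under 1 RPKM in each library. The marker pgc was above it in every library, at 35.3 RPKM in Brm, 114 in Piwi, 58.7 in Mael and 71.8 in EGFP knockdown cells. Hemocyte markers summed to 1.87 to 5.91 RPKM and neuronal ones to 1.32 to 2.84 RPKM. Muscle markers summed to 28.0 to 51.8 RPKM, most of it from the 1 highest of the 4 genes. In the Brm knockdown library the transposon copia took 18.1% of reads, against 7.96% in the EGFP library.

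The cell cycle genes covered a wide range of levels in EGFP control cells. RPKM, which scales reads to feature length and library size, allows levels to be compared between genes. In the EGFP library 35 of the 39 stood at 5 RPKM or more. The median of the 5331 genes at or above that level was 18.3 RPKM. PCNA, the sliding clamp that holds DNA polymerase on its template, led with 333 RPKM. Next came geminin with 93.0 RPKM and Cdk1, the kinase of mitotic entry, with 82.7 RPKM. Dp, the partner of the E2F factors, had 56.1 RPKM, close to aurB (Aurora B) with 55.9 RPKM and polo with 52.9 RPKM. At the low end were BubR1 of the spindle checkpoint with 3.63 RPKM, Orc6 with 2.29, Orc1 with 2.19 and CycE (cyclin E) with 1.81 RPKM. Levels of single genes rest on 20 reads (Orc6) to 3084 reads (PCNA) in that library, so neighbours in this order such as Dp and aurB cannot be ranked.

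**Figure D1:**
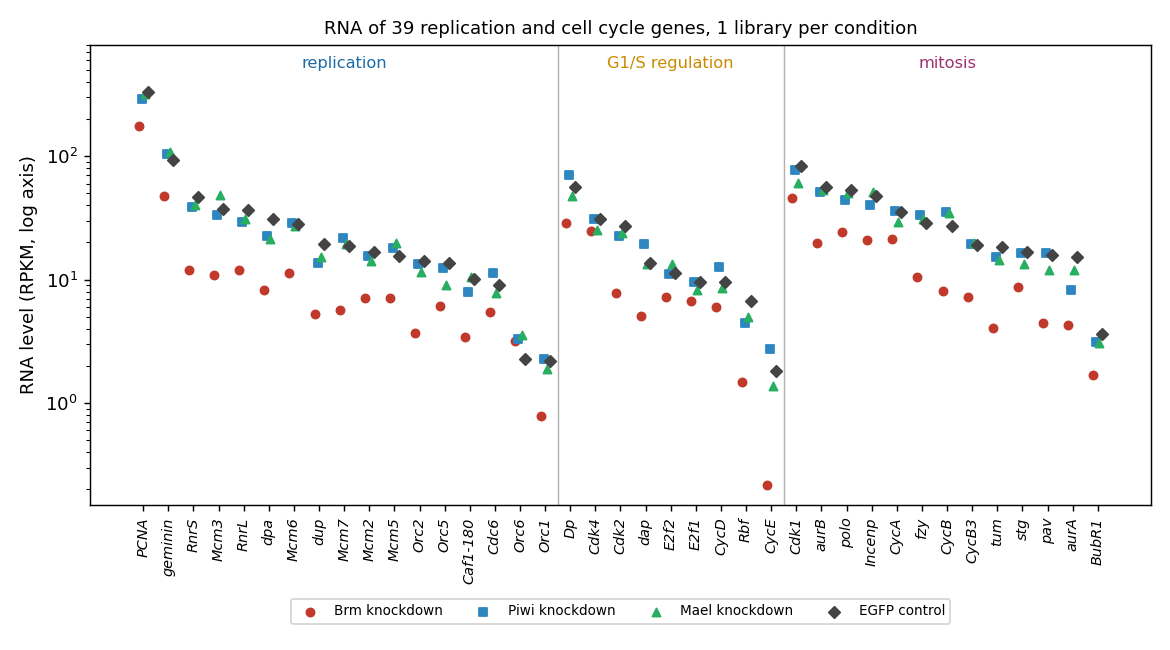
RNA level (RPKM, log axis) of the 39 genes in the Brm, Piwi and Mael knockdown libraries and the EGFP control, 1 point per library, ordered within each role by the control level. On the values as given, red points of the Brm knockdown lie under the other 3 for 38 of 39 genes, all except Orc6. The median feature was itself lower there, at -0.34 against EGFP (log2), and the share of all features was not counted. Relative to the median feature the Brm library was lowest for 33 of 34 genes above the floor, against 38.2% of all features.

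In Brm knockdown cells, set against EGFP cells, RNA of all 15 replication and all 12 mitosis genes that could be compared lay below the median feature, while E2f1, E2f2, CycD and Cdk4 lay near it. Differences are given as log2(RPKM + 1) of the knockdown minus that of the EGFP library, relative to the median feature, and a gene counts as lower or higher at 1 on this scale, a 2-fold difference. Genes with a mean of at least 5 RPKM over both libraries were compared. The median feature itself stood at -0.34 in the Brm, -0.04 in the Piwi and -0.12 in the Mael comparison on the values as given. Of the 34 members above the floor, 15 were lower in Brm knockdown cells, and none was higher. Among all 5083 features compared, 4.13% were lower and 3.86% higher. The members were chosen with earlier results of these data known, so this contrast describes the list and tests nothing. On the values as given 23 of 34 were lower and none higher, where 10.8% of all features were lower and 1.99% higher. The median of the 34 was -0.93, and 33 of 34 lay below the median feature, as 50% of all features do by construction. The quartiles of all features were -0.34 and 0.32. By role, 8 of 15 replication genes were lower (median -1.01), 6 of 12 mitosis genes (median -0.99) and 1 of 7 G1/S regulators (median -0.25). With no floor the medians were -0.87 over all 39 members, -0.92 for replication, -0.94 for mitosis and -0.59 for G1/S regulation.

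The members took 0.132% of the reads on genes in the Brm knockdown library, 0.270% in Piwi, 0.259% in Mael and 0.278% in EGFP knockdown cells. Relative to the median feature of each comparison, the Brm library was the lowest of the 4 for 33 of 34 members above the floor, the exception being Cdk4. With no floor it was the lowest for 37 of 39, Orc6 being the other exception. Over all features above the floor this held for 38.2%. The 95% counting interval of the ratio, which covers counting error only, lay wholly below the median feature for 29 of 34 members and wholly above it for none. Over all features compared, the interval lay below for 23.6% and above for 20.8%. The smaller depth of the Brm library and its copia share moved with this result, and their part in it was not tested. With reads scaled to genes without transposons and the values not centred, 21 of 34 members were lower (9.05% of all features), against the 23 of 34 as given. The gene span of 17 of the 39 overlaps another gene, whose reads cannot be told apart where strand was not used, and of the 20 compared members with no overlap 8 were lower. In these bulk samples, fewer cells in S phase or mitosis and less RNA per cell cannot be told apart.

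**Figure D2:**
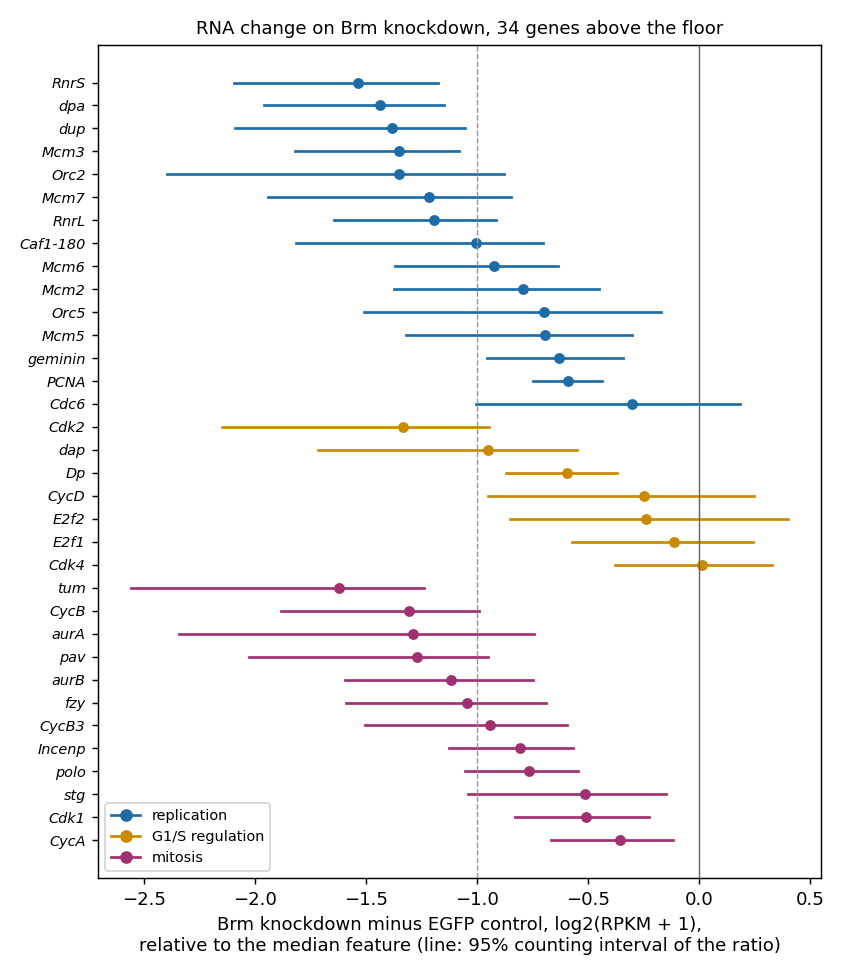
Difference of log2(RPKM + 1), Brm knockdown minus EGFP, relative to the median feature, for the 34 genes above the floor, by role. Points are the differences and lines the 95% counting intervals of the read ratio without a pseudocount. The dashed line marks a 2-fold fall, and 15 points lie at or beyond it.

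The Mcm2-7 ring, the core of the replicative helicase, had less RNA in Brm knockdown cells. Its 6 subunits summed to 50.2 RPKM in Brm, 139.5 in Piwi, 150.8 in Mael and 147.1 in EGFP knockdown cells. Each subunit lay between 5.70 and 11.3 RPKM in the Brm library and between 15.4 and 37.2 RPKM in the EGFP library. These are values as given, on which the median feature was also lower in the Brm library (-0.34). The Mcm4 gene dpa had 8.28 RPKM in Brm, 22.4 in Piwi, 21.5 in Mael and 30.7 in EGFP knockdown cells. Its relative difference on Brm knockdown was -1.44, the furthest of the ring. Mcm3 (X chromosome, 5323855 to 5326738 in Release 6, the dm6 build) had 10.9, 33.2, 48.7 and 37.2 RPKM in Brm, Piwi, Mael and EGFP knockdown cells. Here the Brm library stood apart at the bottom (-1.35) and the Mael library at the top (0.50 against EGFP). Mcm7 was also lower (-1.22). Mcm6 (-0.92), Mcm2 (-0.79) and Mcm5 (-0.70) did not reach 2-fold, although their counting intervals too lay below the median feature.

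Loading factors upstream of the ring differed among themselves. The gene dup, for the loader Cdt1, had 5.23 RPKM in Brm, 13.6 in Piwi, 15.2 in Mael and 19.5 in EGFP knockdown cells, a relative difference of -1.38. Its inhibitor geminin had 47.1, 103.6, 108.8 and 93.0 RPKM in Brm, Piwi, Mael and EGFP knockdown cells (-0.63 for Brm), which did not reach 2-fold. Cdc6, the ATPase that joins ORC to load the ring, had 5.46, 11.3, 7.84 and 9.06 RPKM in Brm, Piwi, Mael and EGFP knockdown cells. Its difference for Brm was -0.30, with an interval that spanned the median feature.

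Within ORC, the complex that marks origins, Orc2 was lower, with 3.71 RPKM in Brm, 13.4 in Piwi, 11.5 in Mael and 14.2 in EGFP knockdown cells (-1.35). Orc5 stood at -0.70 and did not reach 2-fold. Orc1 and Orc6 were under the floor. Orc6 stood above the median feature (0.68), from 15 reads in the Brm and 20 in the EGFP library. It overlaps the gene Sting, and its interval of -0.78 to 2.32 spanned the median feature. Orc3 (0.00) and Orc4 (0.16), which complete the complex, were likewise under the floor. The 6 ORC subunits summed to 19.4 RPKM in Brm, 37.7 in Piwi, 32.2 in Mael and 39.3 in EGFP knockdown cells, so the complex was low in the Brm library mainly through Orc2 and Orc5.

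Both subunits of ribonucleotide reductase, the enzyme that makes deoxyribonucleotides for DNA synthesis, were lower. RnrS, the small subunit, had 12.0 RPKM in Brm, 38.4 in Piwi, 39.9 in Mael and 46.6 in EGFP knockdown cells (-1.54, the furthest of the replication genes). RnrL, the large subunit (2L, 10325026 to 10327943), had 12.0, 29.1, 31.1 and 36.5 RPKM in Brm, Piwi, Mael and EGFP knockdown cells (-1.20). For both genes the Piwi, Mael and EGFP libraries lay close together and the Brm library well under them. At the fork, PCNA had 174.6 RPKM in Brm, 291.4 in Piwi, 320.4 in Mael and 332.9 in EGFP knockdown cells, a difference of -0.59 with an interval of -0.75 to -0.44. PCNA thus stayed the most abundant member in each library. Caf1-180, the large subunit of the chromatin assembly factor that deposits histones behind the fork, stood just past 2-fold at -1.01.

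Among the G1/S regulators the kinase Cdk2, which acts with cyclin E, was the 1 member lower above the floor. It had 7.85 RPKM in Brm, 22.7 in Piwi, 23.7 in Mael and 27.2 in EGFP knockdown cells (-1.33). Its span overlaps CG17267, which had 0.544 RPKM in the Brm and 4.57 RPKM in the EGFP library. The Cdk inhibitor dap (p27 family) had 5.04, 19.4, 13.3 and 13.7 RPKM in Brm, Piwi, Mael and EGFP knockdown cells, and at -0.95 was the member nearest to the 2-fold line from outside. Rbf, the fly retinoblastoma protein, was under the floor with 1.48, 4.44, 4.95 and 6.71 RPKM in Brm, Piwi, Mael and EGFP knockdown cells. It had 26 reads in the Brm and 218 in the EGFP library (-1.30, interval -2.80 to -1.01). CycE had 0.218 RPKM in Brm, 2.72 in Piwi, 1.36 in Mael and 1.81 in EGFP knockdown cells, from 4 reads in the Brm library. Its ratio without a pseudocount was -2.72 on the log2 scale (interval -5.80 to -0.71), against -0.87 with it.

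The E2F factors and the cyclin D kinase lay closer to the median feature. Cdk4 had 24.7 RPKM in Brm, 31.0 in Piwi, 25.3 in Mael and 31.1 in EGFP knockdown cells, with a difference of 0.01 (-0.32 on the values as given) and an interval of -0.38 to 0.33. Its partner CycD stood at -0.25, the activator E2f1 at -0.11 and the repressor E2f2 at -0.24, each with an interval that spanned the median feature. Dp stood at -0.59. The 2 transcripts of E2f2 differed, one with 3.32 RPKM in the Brm and 7.57 in the EGFP library and the other with 3.90 RPKM in the Brm and 3.67 in the EGFP library. Of the 3 transcripts of Dp, 1 carried most of its RNA, with 24.2 RPKM in the Brm and 47.4 in the EGFP library. Which reads were given to which transcript is not stated, so such splits are uncertain.

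The mitosis genes lower in Brm knockdown cells were tum, CycB, aurA, pav, aurB and fzy, 6 of 12. The genes tum (RacGAP50C) and pav (a kinesin) encode centralspindlin, the complex that bundles microtubules between separating chromosomes for cytokinesis. The tum gene had 4.02 RPKM in Brm, 15.3 in Piwi, 14.5 in Mael and 18.5 in EGFP knockdown cells (-1.62, interval -2.56 to -1.24, the furthest of the 34 above the floor). The gene pav (3L, 4242734 to 4246233) had 4.49, 16.5, 11.9 and 15.7 RPKM in Brm, Piwi, Mael and EGFP knockdown cells (-1.27). Summed, centralspindlin RNA was 8.50 RPKM in Brm, 31.7 in Piwi, 26.5 in Mael and 34.2 in EGFP knockdown cells.

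CycB, a mitotic cyclin, had 8.02 RPKM in Brm, 35.1 in Piwi, 35.0 in Mael and 27.1 in EGFP knockdown cells (-1.30). It was above the EGFP level in the Piwi and Mael libraries and far under it in the Brm library. CycB3 stood at -0.94 and CycA, also among the mitosis genes, at -0.36. Cdk1, the partner of these cyclins, had 45.6, 77.9, 60.5 and 82.7 RPKM in Brm, Piwi, Mael and EGFP knockdown cells (-0.51), and stg, the Cdc25 phosphatase that activates it, stood at -0.52. CycB was thus past 2-fold, and Cdk1, stg and CycA were not, but with the leading transcript alone CycB stood at -0.93, short of 2-fold. That transcript had 2.50 RPKM in Brm and 7.30 in EGFP knockdown cells, and at such low values the added 1 RPKM narrows the difference. Set against the median feature of the summed genes, the other transcripts of CycB stood at -1.15, -1.09 and -1.02. The anaphase activator fzy stood at -1.04, with 10.5 RPKM in Brm, 33.1 in Piwi, 31.1 in Mael and 28.9 in EGFP knockdown cells.

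The Aurora kinases were both lower. The centrosomal aurA had 4.30 RPKM in Brm, 8.28 in Piwi, 11.9 in Mael and 15.3 in EGFP knockdown cells (-1.29). It was the 1 member whose Piwi value also lay well under the control. The kinase of the chromosomal passenger complex, aurB (2L, 10856797 to 10858094), had 19.8, 50.9, 53.4 and 55.9 RPKM in Brm, Piwi, Mael and EGFP knockdown cells (-1.12). Incenp, its scaffold, stood at -0.81, the passenger subunit borr at -0.64 and Det (survivin) at 0.00. The kinase polo stood at -0.77, and the checkpoint gene BubR1, under the floor, at -0.45.

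Genes of the same processes outside the 39 also had negative medians on Brm knockdown, as did the 5 ovarian somatic markers above the floor (median -0.40, 4 of 5 below the median feature). Among 29 other replication genes above the floor, 27 were below the median feature and 5 were lower at 2-fold (median -0.44), where 4.13% of all features were. RfC38 of the clamp loader (-1.35), the histone chaperone asf1 (-1.17), DNAlig1, which joins Okazaki fragments (-1.13), and Caf1-55 (-1.03) were among them. The fifth, named after its values were seen, was Psf1 of the GINS complex (-1.03). The other GINS genes, Psf2 (-0.02), Sld5 (-0.22) and Psf3 (0.39), did not reach 2-fold. Nor did the clamp loader genes RfC3 (-0.24), RfC4 (-0.44) and Gnf1 (-0.44). The kinase Cdc7 stood above the median feature at 0.72, with 10.5 RPKM in the Brm and 7.82 in the EGFP library, without reaching 2-fold. Of 13 other G1/S genes, 1 was lower (Skp2, -1.06), near the 4.13% of all features, and the median was -0.28. Cks30A, a Cdk subunit, stood at -0.97, Dref, a transcription factor of replication genes, at -0.80, and mip130 at -0.65.

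Of 36 other mitosis genes above the floor, 5 were lower (median -0.39), against 4.13% of all features. Condensin, the complex that compacts mitotic chromosomes, gave 3 of these, namely barr, Cap-D2 and, named after its values were seen, Cap-G (-1.11). The gene barr had 1.36 RPKM in Brm, 8.41 in Piwi, 8.04 in Mael and 8.80 in EGFP knockdown cells (-1.72), and Cap-D2 stood at -1.24. The kinesin Klp61F of the bipolar spindle (-1.22) and the centromeric histone cid (-1.17) were the others. The condensin genes SMC2 (-0.55) and glu (-0.68, under the floor) did not reach 2-fold. Of 5 checkpoint genes none reached 2-fold (median -0.11), with p53 at 0.65, Hus1-like at 0.12, lok (Chk2) at -0.47 and grp (Chk1) at -0.58. None of the genes on these 4 lists was higher at 2-fold.

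**Figure D3:**
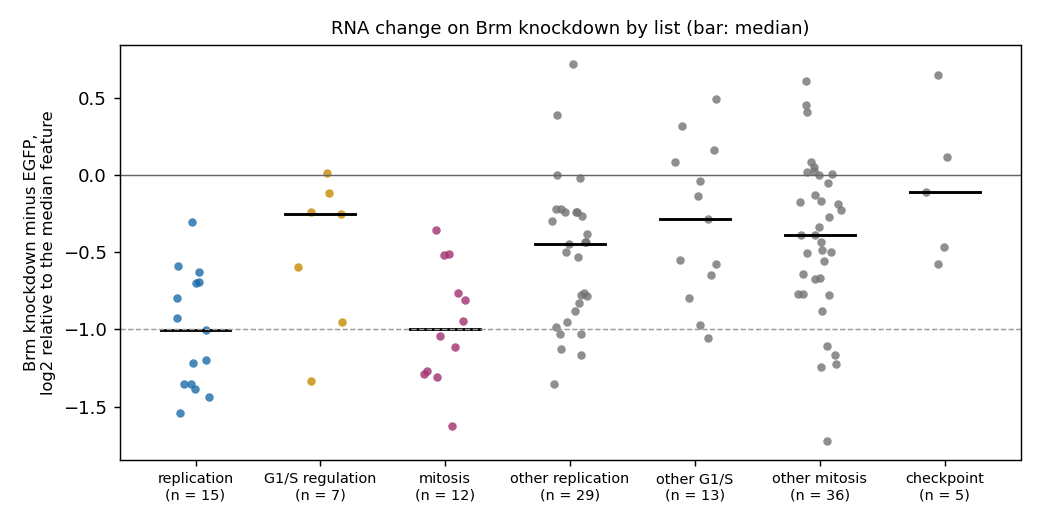
Difference on Brm knockdown (log2, relative to the median feature) for each gene above the floor, by list, with the 39 genes in colour, other genes of the same processes in grey and bars for medians. Medians are -1.01 and -0.99 for the replication and mitosis members, and -0.44 and -0.39 for the other genes of those processes.

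Knockdown of Piwi left these genes near the control. Of 35 members above the floor, none was lower or higher at 2-fold in Piwi knockdown cells, where 0.411% of all features were lower and 1.25% higher. The median was -0.04, and 18 of 35 lay below the median feature (50% of all features). Furthest from it was aurA (-0.77), the 1 member past 1.5-fold on the lower side. Others at the edge were Rbf (-0.46), dup (-0.45) and dpa (-0.40) below, and dap (0.51), CycD (0.42) and CycB (0.40) above. The counting interval lay below the median feature for 9 of 35 (14.6% of all features) and above it for 5 (16.9%). None of the other replication, G1/S, mitosis or checkpoint genes reached 2-fold.

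Knockdown of Mael likewise left them near the control. Of 35 members above the floor, none was lower or higher in Mael knockdown cells, where 0.302% of all features were lower and 0.699% higher. The median was -0.06, and 20 of 35 lay below the median feature (50% of all features). Mcm3 (0.50), CycB (0.48) and Mcm5 (0.47) were the furthest above, and Orc5 (-0.41) and dpa (-0.38) the furthest below. The counting interval lay below the median feature for 3 of 35 (15.2% of all features) and above it for 5 (14.8%). The 3 comparisons share the EGFP library. In Brm knockdown cells 13 of 34 members were lower against the Piwi library in place of EGFP (5.69% of all features), and 19 of 34 against the Mael library (5.68%).

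**Figure D4:**
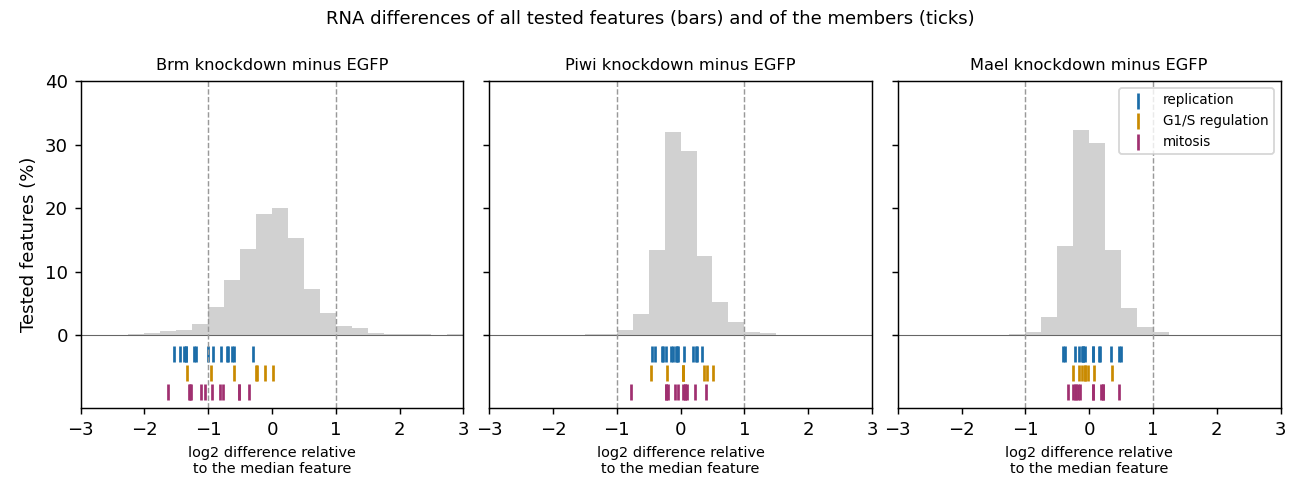
Differences from EGFP (log2, relative to the median feature) in the Brm, Piwi and Mael comparisons. Grey bars give the percentage of all tested features per bin between -3 and 3, ticks the members by role, and dashed lines 2-fold. In the Brm panel 33 of 34 ticks lie left of 0, against 18 of 35 in the Piwi and 20 of 35 in the Mael panel.

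The ChIP table lists transcripts, so its values cover the transcript sequence of each gene, and promoters were not measured apart. Recovered lengths were far shorter than the gene where introns are long. Transcripts of E2f1 (3R, 21620304 to 21660871) had 3149 to 4653 bases. Introns therefore seem to lie outside the values, although the counting rule is not stated. Enrichment is log2 of ChIP over its own input, relative to the median feature, for genes whose input reached the median of all features. Few members reached 2-fold enrichment in Brm ChIP, while most lay above the median feature. In Piwi knockdown cells 3 of 27 members were enriched 2-fold or more in Brm ChIP over input (6.9% of all features), namely geminin (1.33), E2f1 (1.09) and stg (1.05), and none was depleted (7.95%). In control cells it was again 3 of 27 (4.54% of all features), namely Cdk4 (1.13), stg (1.06) and dap (1.03), and none was depleted (3.74%). The input limit kept partly different members in the 2 conditions. Geminin is absent from the control list because its input there (5 reads) was under the limit. Its control value was 1.62. Median enrichment of the members was 0.60 in Piwi knockdown and 0.34 in control cells. The upper quartile of all features was 0.41 in Piwi knockdown and 0.34 in control cells. These calls depend on the centring. On the values as given 1 of 27 was enriched in Piwi knockdown cells (3.29% of all features) and none in control cells (2.49%). Below the median feature lay 5 of 27 members in Piwi knockdown and 4 of 27 in control cells.

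Among the members, the G1/S regulators had the highest median Brm enrichment of the 3 roles. It was 0.72 over 8 genes in Piwi knockdown cells and 0.75 over 6 genes in control cells. For replication genes it was 0.47 over 10 in Piwi knockdown and 0.14 over 11 in control cells, and for mitosis genes 0.55 over 9 in Piwi knockdown and 0.36 over 10 in control cells. E2f1 rests on the most reads, with 73 ChIP and 37 input reads in Piwi knockdown cells and 166 ChIP and 52 input reads in control cells. In control cells its enrichment was 0.76 ± 0.45 (95% counting interval). Of the genes lowest in RNA, tum stood at 0.10 in Piwi knockdown and 0.25 in control cells, RnrS at 0.23 in Piwi knockdown and 0.31 in control cells, and dpa at 0.25 in Piwi knockdown and -0.04 in control cells. The next, dup, stood higher, at 0.96 in Piwi knockdown and 0.65 in control cells. Over the 24 members with both values, control Brm enrichment and the RNA difference had a Pearson r of 0.33 and a Spearman rho of 0.25. The members share their libraries, and so weak a correlation is no finding.

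Polybromo marks the PBAP form of the remodeller. In Piwi knockdown cells 4 of 27 members were enriched 2-fold (7.35% of all features), namely dap (1.58), geminin (1.40), E2f1 (1.35) and E2f2 (1.22), and none was depleted (8.24%). In control cells 2 of 27 were (3.55% of all features), namely dap (1.18) and Cdk4 (1.17), and none was depleted (6.2%). Geminin, left out of the control list for its low input, stood at 1.37 there. On the values as given 3 of 27 were enriched in Piwi knockdown cells (3.87% of all features), and in control cells 1 was enriched (2.57%) and 1 depleted (8.8%). Medians of the members were 0.41 in Piwi knockdown and 0.17 in control cells, where the upper quartiles of all features were 0.37 and 0.31. Among G1/S regulators the medians were 0.92 in Piwi knockdown and 0.53 in control cells.

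The change of binding on Piwi knockdown was small beside its counting error. For Brm none of 25 members changed 2-fold (6.38% of all features higher, 8.24% lower), the median change was -0.01, and none exceeded its own counting interval (2.29% of all features). For Polybromo none of 25 changed 2-fold (8.72% higher, 9.21% lower), and the median was 0.28. E2f1, at 0.81 ± 0.79, was the 1 member beyond its interval (2.61% of all features). The median member had 24 reads in the Brm ChIP of Piwi knockdown cells and 55 in that of control cells. The median 95% half-width of a change was then 1.16 for Brm and 1.26 for Polybromo, so a 2-fold change of a typical member was not detectable at this depth.

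Osa ChIP scattered widely over all features. In Piwi knockdown cells 4 of 36 members were enriched (15.1% of all features) and 7 depleted (22.4%). In control cells 7 of 31 were enriched (19.1%) and 6 depleted (24.2%). Medians were -0.04 in Piwi knockdown and 0.02 in control cells. By role the G1/S regulators again stood highest, at 0.41 over 8 genes in Piwi knockdown and 0.94 over 5 genes in control cells. On Piwi knockdown 9 of 32 were higher (29%), near the share of all features, and 12 were lower (27.1%), above it. These counts also depend on the centring. On the values as given 3 of 36 were enriched (3.64%) and 15 depleted (43.6%) in Piwi knockdown cells, and none of 31 was enriched (2.84%) and 18 depleted (59.1%) in control cells. The change as given was higher for 11 of 32 (37.7%) and lower for 8 (20.2%). Beyond their own counting interval lay 13 of 32 changes, where 20% of all features did. The Osa input of Piwi knockdown cells had 475226 reads in all and a median of 13 on a member.

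**Figure D5:**
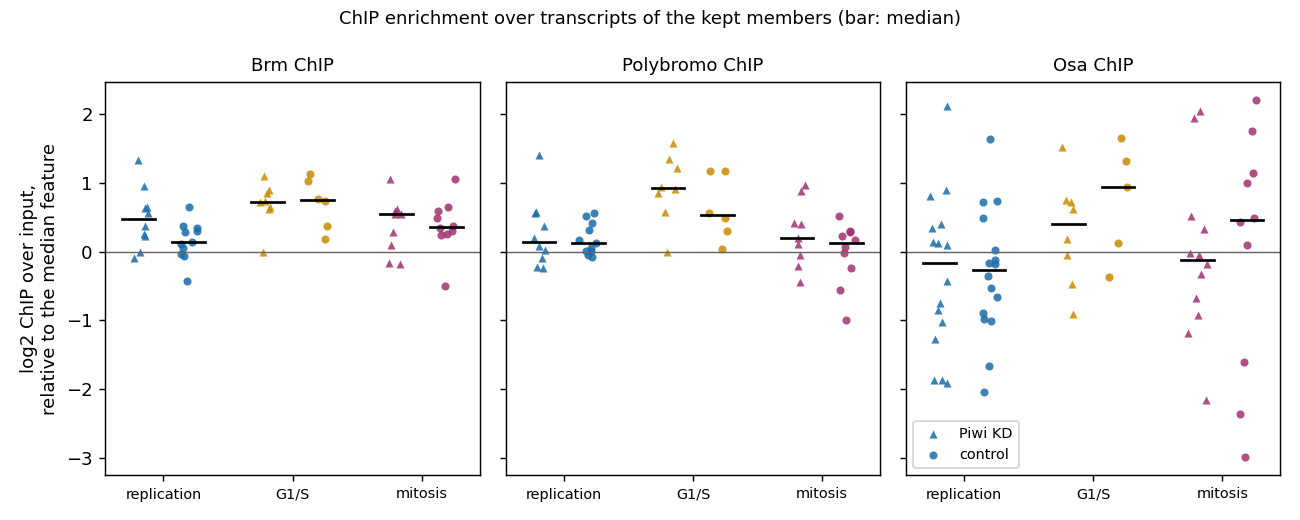
Enrichment (log2 ChIP over input, relative to the median feature) of members with enough input, by role, for Brm, Polybromo and Osa. Triangles are Piwi knockdown cells, circles control cells and bars medians. Among these members, G1/S regulators have the highest medians in every panel, and the Osa values scatter most. The lowest Osa point in control cells (-2.98, aurB) has 0 ChIP reads, so its size is set by the constant added to ChIP and input.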

How the data were processed

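Members and gene lists were chosen with earlier results of these data known. RNA-seq (4 libraries) and ChIP-seq with input (10 libraries) of OSCs were used; 4 ovary libraries were not analysed here, and 4 RNA columns matching no sample were not used. The deposited values are RPKM per transcript or transposon, computed by the authors; that unit fits the recovered whole reads, while the counting rule, its use of strand and the sharing of reads between transcripts are, in the sources used here, not given. Bowtie2 2.2.4 and the dm6 build are named, per the submitters' processing notes.

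RPKM were summed over each gene's transcripts, matched through the RefSeq table of Release 6, which also gave the 1-based coordinates (34925 of the accessions matched, 402 did not). Reads were recovered as RPKM times length times library total, with a tolerance of 0.01 read. Too short a length would understate them. RNA was compared as log2(RPKM + 1), minus the median over features with a mean of at least 5 RPKM, with a 2-fold threshold. RNA intervals are 95% Clopper-Pearson intervals on fragments (reads divided by 2), without a pseudocount. ChIP was compared as log2 over input after adding to both the value at the 5th percentile of nonzero input, for features whose input reached the median of all features. For ChIP a normal approximation on log read ratios gave 95% intervals. Intervals cover counting error only.

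Every member was named or counted, with the 3 targeted genes and, per list of other genes, up to 4 with the largest difference on Brm knockdown; complexes, transcripts, overlapping genes and other named genes were chosen after their values were seen. Promoter sequences, planned for some members, were not used here. Of the members, 17 overlap another gene. The steps were tested on simulated reads. Python 3.11.15, pandas 2.3.3, numpy 2.4.6 and scipy 1.17.1 were used.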

Additional observations from a re-analysis of the deposited data

How the results depend on the processing

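The count of members lower in Brm knockdown cells (15 of 34) was 8 with log2(RPKM + 5), 23 on the values as given and 26 at a 1.5-fold threshold, where 2.01%, 10.8% and 13.6% of all features were lower, against 4.13%. Scaling to genes without transposons, also not centred, gave 21 of 34 (9.05% of all features). Of the other centred alternatives, a smaller pseudocount gave 17 of 34 (5.39% of all features) and a floor over 4 libraries 14 of 34 (4.48%). In place of EGFP, the Piwi library gave 13 of 34 (5.69%) and the Mael library 19 of 34 (5.68%). A lower floor gave 15 of 39 (5.09%), no floor 16 of 39 (4.49%) and the leading transcript 14 of 31 (4.28%). The median of members ran from -1.27 to -0.71 over all alternatives tried. In Piwi knockdown cells 1 member (aurA) was lower at 1.5-fold, and none under the other alternatives. Median Osa enrichment in control cells was -1.25 on the values as given, against 0.02 relative to the median feature. The median Brm ChIP change on Piwi knockdown ran from -0.12 to 0.37 and the Osa change from -0.38 to 0.14, and both ranges span 0. No value reversed by the rule used for single values, and 24 of the single gene values moved by more than their interval.

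Of the 20 members with no overlapping gene, 8 were lower on Brm knockdown (median -0.93), and of the 14 with one, 7 were (median -0.87). No paired analysis was possible because each group held 1 library, and no library could be left out for the same reason. Depth limits single genes, with a median of 18 input reads per member in Piwi knockdown and 23 in control cells for Brm and Polybromo ChIP.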
